A study of Mus musculus with 6 samples.

Results

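Cytochrome P450 genes other than those of the Cyp2j subfamily were described across 6 arrays of mouse small intestinal epithelium. They were chosen by name: every gene whose symbol is Cyp followed by a family number, a subfamily letter and a gene number, without the Cyp2j genes and Cyp26b1. This gave 74 genes of the 19938 measured by a probe set that names exactly 1 gene, and each of the 74 had 1 such probe set. By family they comprised 3 genes of family 1, 37 of family 2, 6 of family 3, 13 of family 4 and 15 of other families. A further 7 P450 probe sets with other kinds of symbol (pseudogenes, Cyp51, Cyp2ab1, Cyp26b1 and the Cyp4a12 pair) were not members. Another 7 probe sets that the annotation assigns to several P450 genes, or to a P450 gene and another gene, were not members either.

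Cytochromes P450 are haem enzymes that insert oxygen into small lipophilic molecules, with electrons from P450 reductase and cytochrome b5 in the endoplasmic reticulum or from ferredoxin in mitochondria. Families 1 to 3 are best known for oxidising drugs, dietary compounds and pollutants. Family 4 enzymes hydroxylate the far end of fatty acids and eicosanoids, and most of the other families act on sterols, bile acids, steroid hormones, retinoic acid and vitamin D. Liver holds the richest set of these enzymes. The intestinal epithelium has its own smaller set, which meets ingested compounds before the liver does.

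The control group held 3 arrays of RNA from epithelial cells isolated from small intestine at E18.5, and the other group held 3 arrays from Gata4Gata6 conditional double knockouts (cKO) of the same stage. Both factors bind GATA sequences in DNA and act in the gut endoderm. The sources used here name no cre driver, deleted part or strain. They also do not say that arrays of a group hold RNA of different animals, so the spread behind the p-values may be technical. Levels are the authors' log2 values. A change is the mean of the cKO arrays minus the mean of the control arrays, with its SE and n = 3 arrays per group. Tests were made with limma on all 19938 genes, p-values were adjusted by the Benjamini-Hochberg method, and a gene passed at an adjusted p under 0.05.

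The targeted genes did not fall in the cKO group. Gata4 changed by 0.47 ± 0.075 (adjusted p = 0.0101) and Gata6 by 0.45 ± 0.065 (adjusted p = 0.0067), so every direction below rests on the labels. The 15 epithelial markers were bright on every array, with list means between 11.86 and 12.08. Of these 15, 3 rose and 1 fell: the keratin gene Krt19 rose by 0.61 ± 0.092 (adjusted p = 0.0080), Epcam and Krt8 rose by 0.32 each, and Fabp2, a fatty acid binding protein of enterocytes, fell by 2.73 ± 0.27 (adjusted p = 0.00163). The shares of all genes were 5.52% higher and 7.42% lower. The calls of Epcam and Krt8 held in 1 of the 6 fits with an array removed. The part of epithelial makeup in the P450 values was not tested. RNA of liver was unevenly present. Alb, the albumin gene, was at 12.04, 6.56 and 13.19 on controls 1, 2 and 3 and at 7.09, 13.66 and 6.96 on cKO 1, 2 and 3. Alb was thus high on cKO 2, control 3 and control 1 and low on the other 3 arrays. Other bright hepatocyte genes did not all split this way. Trf was at 12, 11.18 and 12.55 on the controls and at 12.4, 13.64 and 12.23 on the cKO arrays. Ttr was at 11.06, 10.97 and 11.83 on the controls and at 11.9, 13.07 and 11.97 on the cKO arrays. Both were higher on cKO 1 and cKO 3 than on control 1. Afp was at 11.08, 10.85 and 11.87 on the controls and at 9.06, 12.91 and 9.69 on the cKO arrays. The mean of 27 hepatocyte genes was 11.72 on cKO 2, 9.77 on control 3, 8.52 on control 1 and 7.59 to 8.11 elsewhere. Of these 27 genes 26 were highest on cKO 2, none was at 0, and Tat, Ambp and F9 were higher on all 3 arrays labelled cKO and passed the test. The F9 call held in only 2 of the 6 fits with an array removed (adjusted p up to 0.0785). The erythroid mean was also highest on cKO 2 (10.04 against 6.72 to 8.15), as were the immune mean (9.75 against 7.28 to 8.25) and the endothelial mean (8.47 against 6.91 to 7.89). Of 15 immune genes 13 were highest on cKO 2, but Csf1r was at 9.12 there against 10.26 to 10.60 on the controls. Between the groups Csf1r fell by 2.22 ± 0.40 (adjusted p = 0.0148) and Itgam rose by 1.30 ± 0.29 (adjusted p = 0.034). Each of these 2 calls held in 2 of the 6 fits with an array removed. The mesenchymal mean was 8.31, 7.97 and 8.13 on controls 1, 2 and 3 and 9.32, 9.10 and 8.37 on cKO 1, 2 and 3. It was thus higher on every cKO array than on every control, though cKO 3 was barely above control 1. Of the 14 genes of this list only Actg2 passed, higher by 1.85 ± 0.46 (adjusted p = 0.0475). That call held in 1 of the 6 fits with an array removed. The part of the mesenchymal list in the P450 values was not tested. The exocrine pancreatic mean was highest on control 1 (10.16) and lowest on control 3 (7.33). The stomach mean stayed between 7.79 and 8.06. The mean of 7 genes of steroid-producing cells was 9.0 on cKO 2 and 7.66 to 8.28 elsewhere, but only 2 of the 7 were highest on cKO 2. Nr5a1 stayed between 7.75 and 7.92, and Scarb1 was at 10.54 on cKO 2 against 10.59 to 10.97 on the controls. Inha was the only gene of the 7 that passed. It was at 9.16, 9.14 and 9.40 on the controls and at 10.32, 10.47 and 10.48 on the cKO arrays. The change was 1.19 ± 0.10 (adjusted p = 0.000963), and it passed with each array left out in turn. The part of such cells in the P450 values was not tested. In bulk samples, fewer cells of a type and less RNA per cell cannot be told apart.

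Of the 74 P450 genes, 2 rose and 5 fell in the cKO group. Cyp2d34 and Cyp4f40 rose. Cyp2u1, Cyp3a13, Cyp4f13, Cyp4f14 and Cyp4f16 fell. These 7 genes are 9.46% of the members, against 12.9% of all genes that passed in either direction. The shares were 2.7% against 5.52% for higher and 6.76% against 7.42% for lower. The P450 genes as a group therefore changed no more often than the background. The median change was 0.045 over the members and −0.01 over all genes. Groups did not overlap for 13 members (17.6%), against 32.6% of all genes, and the unadjusted p was under 0.05 for 11 members (14.9%, against 26.6%). Many members were dim: 53 of 74 had a mean level below the median of all genes (8.21) and 45 were in the lower tertile (below 7.50). No detection calls were used, so a small change at such levels may understate a larger one.

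**Figure D1:**
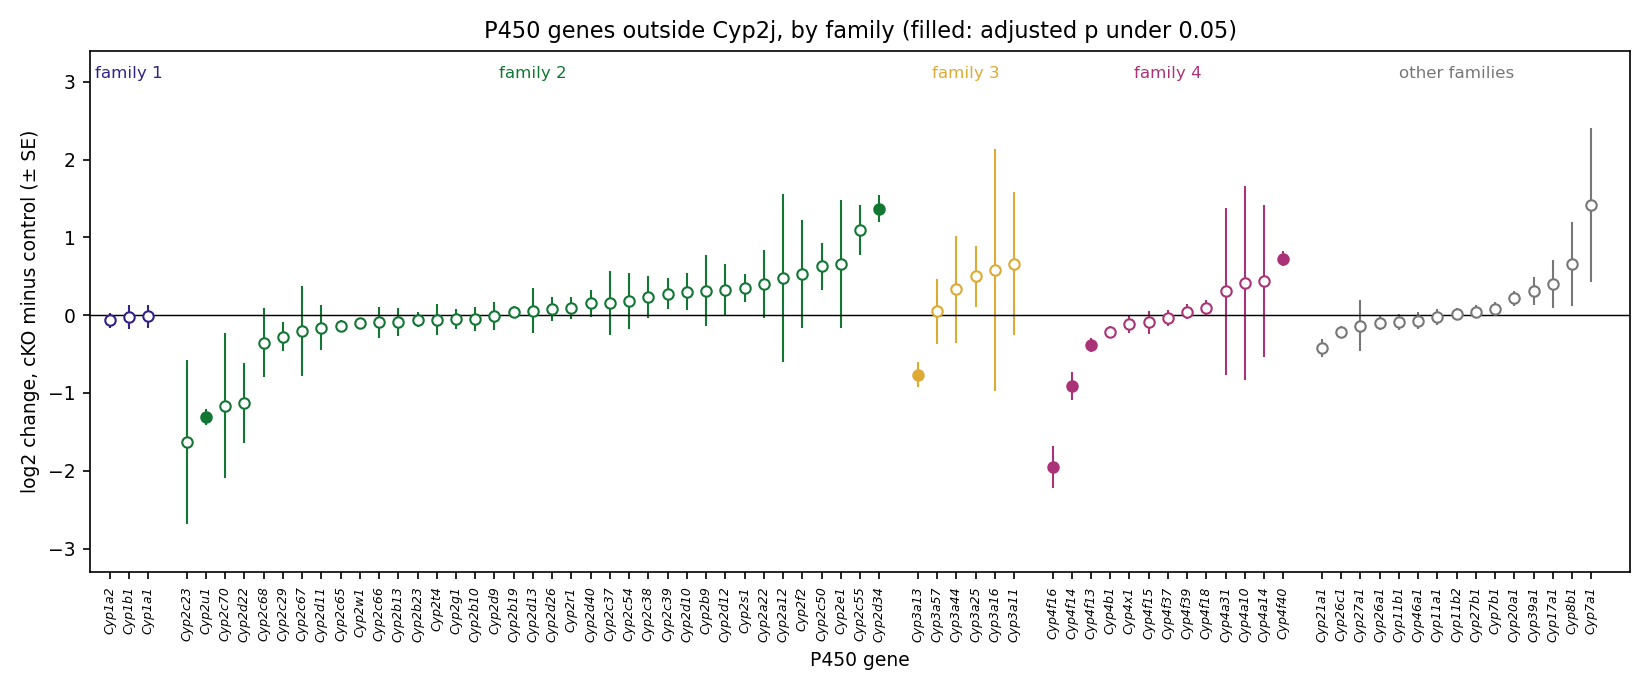
Log2 change (cKO minus control, ± SE, n = 3 arrays per group) of the 74 P450 genes, ordered by change within each family. Filled points passed the test: 2 lie above 0 (Cyp2d34 and Cyp4f40) and 5 below it, while several open points have long error bars, such as Cyp2c23 at −1.63 ± 1.05 and Cyp7a1 at 1.42 ± 0.99.

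**Figure D2:**
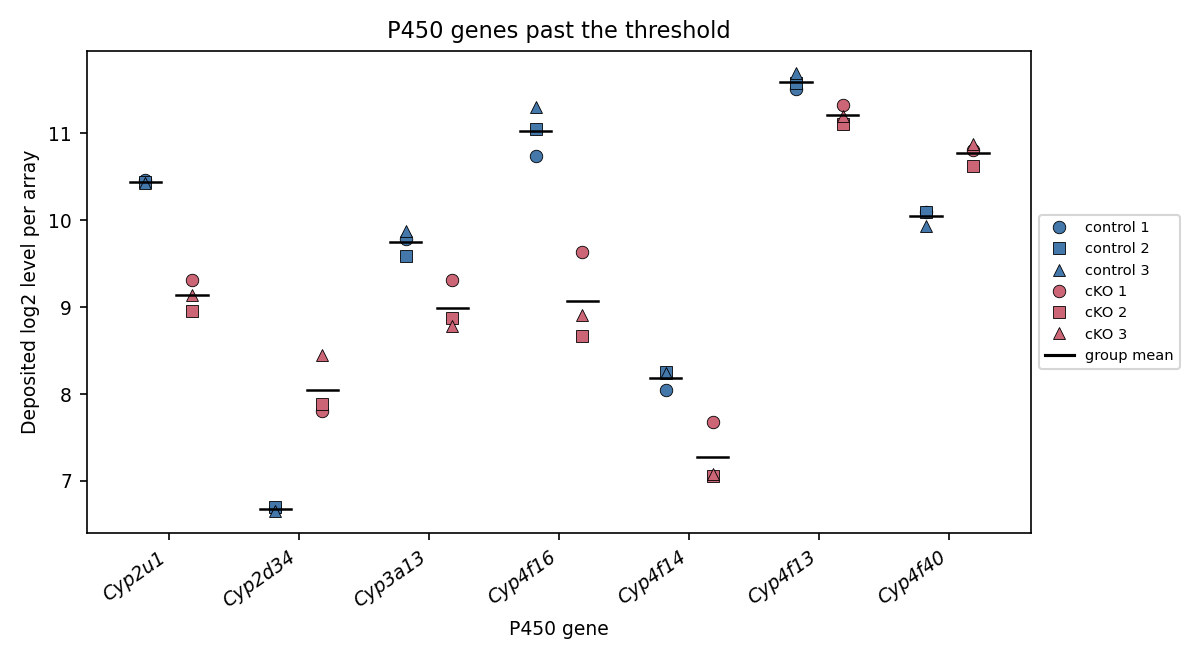
Deposited log2 level on each array for the 7 P450 genes that passed. Symbols give the replicate, colours the group and bars the group mean. For each gene the 3 control arrays and the 3 cKO arrays do not overlap, with the largest difference of group means for Cyp4f16 (means 11.03 and 9.07).

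In family 1 no gene moved. Cyp1a1, Cyp1a2 and Cyp1b1 oxidise polycyclic aromatic hydrocarbons and are the classical targets of the aryl hydrocarbon receptor. Cyp1a1 was at 6.21, 6.56 and 6.72 on the controls and at 6.54, 6.31 and 6.59 on the cKO arrays. The groups overlapped, and the change was −0.02 ± 0.15 (adjusted p = 0.962). Cyp1a2 and Cyp1b1 changed by −0.07 ± 0.093 (adjusted p = 0.712) and −0.02 ± 0.15 (adjusted p = 0.946). All 3 were among the dim genes described above.

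In family 2, the largest family, 1 of 37 genes fell and 1 rose. Cyp2u1, a hydroxylase of long-chain fatty acids, was at 10.47, 10.44 and 10.43 on the controls. On cKO 1, 2 and 3 it was at 9.31, 8.96 and 9.14. Every cKO array lay more than a log2 unit below every control array, and the control values were nearly equal. The change was −1.31 ± 0.10, or 2.48-fold lower (adjusted p = 0.000781), and it passed with each array left out in turn. It was 2.33-fold lower without cKO 2.

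Cyp2d34 belongs to the Cyp2d cluster of chromosome 15, whose members resemble each other closely, so that signal from a near-identical copy cannot be told apart from its own. It was at 6.68, 6.70 and 6.65 on the controls and at 7.8, 7.89 and 8.45 on the cKO arrays. Controls were tight and low, and all 3 cKO arrays were above them. The change was 1.37 ± 0.17, or 2.58-fold higher (adjusted p = 0.00413), and it passed with each array left out in turn.

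The other 8 genes of the Cyp2d subfamily did not pass. Cyp2d26 had the highest signal of family 2 and was at 12.05, 12.37 and 12.46 on the controls and at 12.17, 12.60 and 12.35 on the cKO arrays, a change of 0.08 ± 0.15 (adjusted p = 0.791). The groups overlapped, with cKO 2 highest and control 1 lowest. Cyp2d9, Cyp2d10, Cyp2d11, Cyp2d12, Cyp2d13 and Cyp2d40 changed by −0.16 to 0.33. Cyp2d22, which differed between arrays of a group, is described with the genes split by cKO 2.

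In the Cyp2c subfamily, known for epoxidation of arachidonic acid and for drug oxidation, 0 of 13 genes passed under limma with all 6 arrays and no covariate. None of the 13 had an unadjusted p under 0.05 apart from Cyp2c55. Cyp2c55, an enzyme of the large bowel, was at 6.17, 6.13 and 6.92 on the controls and at 8.11, 7.17 and 7.22 on the cKO arrays. All 3 cKO values were above all 3 controls, and the change was 1.09 ± 0.32 (adjusted p = 0.079). It passed only with control 3 and cKO 2 both left out, at 1.51 (adjusted p = 0.046). Cyp2c65 and Cyp2c66, its neighbours on chromosome 19, changed by −0.14 ± 0.078 (adjusted p = 0.33) and −0.09 ± 0.20 (adjusted p = 0.823). Cyp2c29, Cyp2c37, Cyp2c38, Cyp2c39, Cyp2c50 and Cyp2c54 changed by −0.28 to 0.63. Of these, Cyp2c50 (0.63 ± 0.30, adjusted p = 0.256) passed without control 3, at 0.98 (adjusted p = 0.021), and with control 3 and cKO 2 both left out, at 0.92 (adjusted p = 0.0305).

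Cyp2w1, known from fetal gut, was at 11.84, 11.81 and 11.84 on the controls and at 11.75, 11.66 and 11.76 on the cKO arrays. The groups did not overlap, but the change was only −0.11 ± 0.068 (adjusted p = 0.388). Cyp2s1, an epithelial enzyme, changed by 0.35 ± 0.18 (adjusted p = 0.286), from 10.76, 10.48 and 10.21 to 10.98, 10.54 and 10.98. Cyp2b10, the classical phenobarbital-inducible gene of the liver, changed by −0.05 ± 0.15 (adjusted p = 0.886), and the other Cyp2b genes (Cyp2b9, Cyp2b13, Cyp2b19 and Cyp2b23) by −0.09 to 0.32. Cyp2g1, Cyp2r1 and Cyp2t4 changed by −0.06 to 0.09. Cyp2r1 activates vitamin D by its first hydroxylation.

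Family 3 holds the main drug-oxidising enzymes of liver and gut, and 1 of its 6 genes fell. Cyp3a13, which lies apart from the main Cyp3a cluster on chromosome 5, was at 9.79, 9.59 and 9.88 on the controls and at 9.31, 8.88 and 8.78 on the cKO arrays. All cKO arrays were lower than all controls. The change was −0.76 ± 0.16, or 1.70-fold lower (adjusted p = 0.0254). With 1 array left out it passed only without cKO 1, where it was −0.92 (adjusted p = 0.00961). The adjusted p reached 0.0951 among the other arrays left out and was 0.148 with control 3 and cKO 2 both left out, where the change was −0.65. The other 5 genes of the family were all highest on cKO 2 and are described with the liver-rich array.

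Family 4 held 4 of the 7 calls, all in the Cyp4f subfamily, whose enzymes hydroxylate leukotriene B4 and long-chain fatty acids. Of 8 Cyp4f genes 3 fell and 1 rose, beside 7.42% and 5.52% of all genes, and the subfamily was not tested as a set. The calls of Cyp4f14 and Cyp4f13 held in only 2 and 1 of the 6 fits with an array removed. In the RefSeq gene order of chromosome 17 the measured genes of the subfamily run Cyp4f39, Cyp4f16, Cyp4f37, Cyp4f40, Cyp4f15, Cyp4f14, Cyp4f13, while Cyp4f18 is on chromosome 8. The riser Cyp4f40 thus lay between genes that did not pass, and fallers lay on either side of it. The 250 bases before the start of the 4 genes that passed are shown because neighbouring genes of 1 cluster moved in opposite directions. They are given 5′ to 3′ on the strand of the gene, from RefSeq on GRCm38.p6 (Cyp4f16, chr17:32536307-32536556, plus strand; Cyp4f14, chr17:32917357-32917606, minus strand; Cyp4f13, chr17:32947362-32947611, minus strand; Cyp4f40, chr17:32658636-32658885, plus strand). Where a gene has several starts, the one farthest upstream was used. Capitals mark matches to the GATA motif, searched as AGATAA or TGATAA or AGATAG or TGATAG on both strands.
Cyp4f16: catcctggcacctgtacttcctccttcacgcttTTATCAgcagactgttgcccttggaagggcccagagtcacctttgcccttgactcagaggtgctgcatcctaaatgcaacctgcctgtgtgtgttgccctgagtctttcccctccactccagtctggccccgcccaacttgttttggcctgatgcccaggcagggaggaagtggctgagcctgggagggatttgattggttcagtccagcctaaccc
Cyp4f14: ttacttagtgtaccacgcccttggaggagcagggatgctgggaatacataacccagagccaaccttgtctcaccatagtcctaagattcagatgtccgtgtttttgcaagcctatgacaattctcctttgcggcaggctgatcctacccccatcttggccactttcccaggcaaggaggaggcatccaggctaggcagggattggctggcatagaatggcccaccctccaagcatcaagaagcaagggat
Cyp4f13: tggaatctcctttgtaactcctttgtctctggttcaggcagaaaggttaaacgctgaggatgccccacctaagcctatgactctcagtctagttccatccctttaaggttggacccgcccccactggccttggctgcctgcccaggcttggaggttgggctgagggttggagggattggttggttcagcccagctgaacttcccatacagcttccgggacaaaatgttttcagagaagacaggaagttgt
Cyp4f40: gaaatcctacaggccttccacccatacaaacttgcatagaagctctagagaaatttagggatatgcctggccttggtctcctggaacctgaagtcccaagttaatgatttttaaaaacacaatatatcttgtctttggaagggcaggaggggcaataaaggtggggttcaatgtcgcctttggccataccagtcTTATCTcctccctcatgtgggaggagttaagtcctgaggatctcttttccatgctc
Cyp4f16 had a match, TTATCA, that begins 217 bases before the start, and Cyp4f40 had TTATCT, 56 bases before it. Cyp4f14 and Cyp4f13 had no match in this window. The motif is common: 27.1% of 27025 promoters of the table held it in the same window, as did 27 of the 55 member promoters in the table (49.1%). The genes that fell thus included promoters with and without the letters, and the gene that rose had them too. A match is a description of the sequence only.

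Cyp4f16 had the largest fall of all 74 genes with all 6 arrays and no covariate, while Cyp2c23 fell further with the hepatocyte covariate and both Cyp2c23 and Cyp2c70 fell further without cKO 2. It was at 10.74, 11.05 and 11.30 on the controls and at 9.64, 8.67 and 8.91 on the cKO arrays. The lowest control was more than a log2 unit above the highest cKO array. The change was −1.96 ± 0.27, or 3.88-fold lower (adjusted p = 0.00577), and it passed with each array left out in turn, at −2.24 to −1.76.

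Cyp4f14, a hydroxylase of leukotriene B4, was at 8.05, 8.26 and 8.24 on the controls and at 7.68, 7.06 and 7.08 on the cKO arrays. The groups did not overlap, although cKO 1 lay closer to the controls than the other cKO arrays. The change was −0.91 ± 0.18 (adjusted p = 0.0219). It passed without cKO 1 or cKO 2 but not without cKO 3 or any 1 control array (adjusted p up to 0.0847), and not with control 3 and cKO 2 both left out (0.121).

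Cyp4f13 changed least of the genes that passed. It was at 11.51, 11.58 and 11.70 on the controls and at 11.33, 11.11 and 11.20 on the cKO arrays. The groups were separate, but by a narrow margin. The change was −0.38 ± 0.092 (adjusted p = 0.0419), and the call was lost with quantile normalization (−0.33, adjusted p = 0.0922), with arrays centred on their median, with the hepatocyte covariate described below (−0.37, adjusted p = 0.0663), and whenever an array other than cKO 1 was omitted (adjusted p at most 0.131).

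Cyp4f40 moved the other way. It was at 10.10, 10.10 and 9.94 on the controls and at 10.81, 10.63 and 10.88 on the cKO arrays. All cKO arrays were higher, and both groups were tight. The change was 0.73 ± 0.096, or 1.65-fold higher (adjusted p = 0.00486), and it passed with each array left out in turn. Probe sets of such similar genes can share signal, and the opposite directions were measured on separate probe sets.

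The remaining Cyp4f genes changed by −0.09 to 0.09 (Cyp4f15, Cyp4f18, Cyp4f37 and Cyp4f39) and did not pass. Cyp4f15 lies between Cyp4f40 and Cyp4f14 and was at 8.84, 8.83 and 8.73 on the controls and 8.72, 8.98 and 8.42 on the cKO arrays. Its groups overlapped. Cyp4b1, a fatty acid and furan hydroxylase of lung and other epithelia, was lower on every cKO array but changed by only −0.21 ± 0.072 (adjusted p = 0.114). Cyp4x1 changed by −0.11 ± 0.11 (adjusted p = 0.602).

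None of the 15 genes of the other families passed under limma with all 6 arrays, all genes and no covariate, and Cyp21a1 and Cyp26c1 had an unadjusted p under 0.05. Cyp21a1, the adrenal steroid hydroxylase, was at 8.29, 8.02 and 8.11 on the controls and at 7.92, 7.65 and 7.58 on the cKO arrays. The groups did not overlap, and the change was −0.42 ± 0.12 (adjusted p = 0.0726). It passed without cKO 1 (−0.53, adjusted p = 0.0411) but with no other array left out, and it passed with the lower tertile of genes by level removed (adjusted p = 0.0459). Cyp26c1 and Cyp26a1, which break down retinoic acid, changed by −0.22 ± 0.078 (adjusted p = 0.131) and −0.10 ± 0.098 (adjusted p = 0.596). Cyp11a1, Cyp11b1 and Cyp11b2, mitochondrial enzymes of steroid hormone synthesis, changed by −0.08 to 0.02. Cyp17a1, of androgen synthesis, stood at 7.60 on cKO 2 and at 6.34 to 6.72 on the other 5 arrays.

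The sterol and vitamin D enzymes were likewise steady unless cKO 2 stood apart. Cyp27b1, which makes active vitamin D, changed by 0.05 ± 0.078 (adjusted p = 0.762). Cyp46a1, the cholesterol hydroxylase of neurons, changed by −0.07 ± 0.11 (adjusted p = 0.752), and Cyp7b1, an oxysterol hydroxylase, by 0.08 ± 0.092 (adjusted p = 0.66). Cyp39a1, another oxysterol hydroxylase, changed by 0.31 ± 0.18 (adjusted p = 0.352), and the orphan Cyp20a1 by 0.22 ± 0.097 (adjusted p = 0.211). Cyp19a1 and Cyp24a1 were not analysed here.

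Array cKO 2, the richest in hepatocyte transcripts, stood apart for many P450 genes. It was the highest of the 6 arrays for 32 of 74 members (43.2%), against 20.9% of all genes. It exceeded every other array by more than 1 log2 unit for 15 members (20.3%), against 2.32% of all genes. These were Cyp2a12, Cyp2a22, Cyp2b9, Cyp2c37, Cyp2e1, Cyp2f2, Cyp3a11, Cyp3a16, Cyp3a25, Cyp3a44, Cyp4a10, Cyp4a14, Cyp4a31, Cyp7a1 and Cyp8b1. None of the 15 passed between the groups with all arrays and no covariate, with adjusted p from 0.43 (Cyp7a1) to 0.891 (Cyp4a31). All 7 probe sets assigned to several genes were highest on cKO 2 too.

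**Figure D3:**
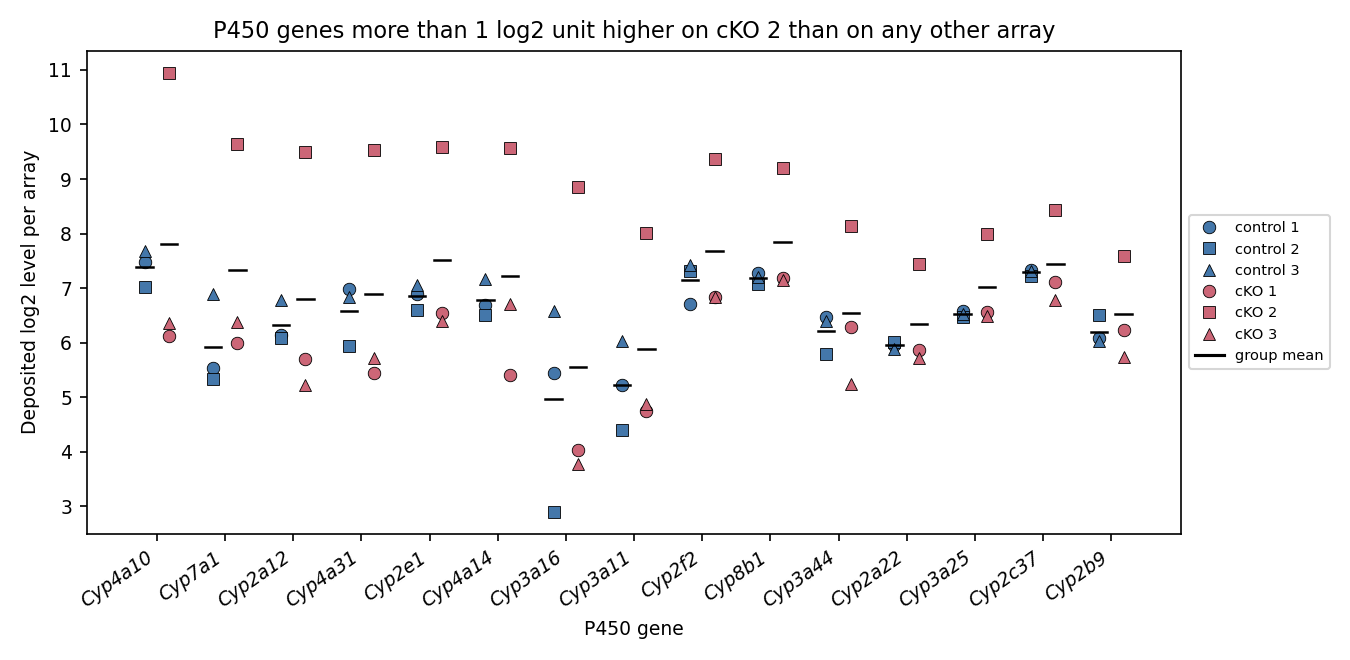
Deposited log2 level on each array for the 15 P450 genes more than 1 log2 unit higher on cKO 2 than on any other array, ordered by that excess. The red square of cKO 2 stands alone above the other 5 arrays for every gene, and for Cyp4a10 it is at 10.95 against 6.12 to 7.68.

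Cyp7a1, the rate-limiting enzyme of bile acid synthesis in hepatocytes, shows the pattern. It was at 5.53, 5.34 and 6.89 on the controls and at 5.99, 9.64 and 6.38 on the cKO arrays. Array cKO 2 was by far the brightest, followed by control 3. The change of 1.42 ± 0.99 with all arrays (adjusted p = 0.43) was 0.27 without cKO 2 (adjusted p = 0.791). Cyp8b1, which makes cholic acid, was at 9.20 on cKO 2 and at 7.07 to 7.27 elsewhere, and its change went from 0.66 to −0.02 without cKO 2.

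Cyp2e1, the ethanol-inducible enzyme of the liver, was at 6.89, 6.59 and 7.06 on the controls and at 6.55, 9.58 and 6.39 on the cKO arrays. Cyp2f2, best known from airway epithelium, was at 9.37 on cKO 2 and at 6.70 to 7.43 elsewhere. Both lay lower on cKO 1 and cKO 3 than on cKO 2 by more than 2 log2 units. The changes without cKO 2 were −0.38 (adjusted p = 0.201) and −0.31 (adjusted p = 0.465).

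The Cyp3a genes of the main cluster on chromosome 5 followed the same array. Cyp3a11, the chief drug-oxidising P450 of mouse liver, was at 5.23, 4.4 and 6.03 on the controls and at 4.75, 8.01 and 4.88 on the cKO arrays. Cyp3a16, a form of fetal liver, was at 5.45, 2.90 and 6.57 on the controls and at 4.03, 8.86 and 3.78 on the cKO arrays. Both genes were highest on cKO 2, then on control 3, then on control 1. Alb and Afp had this order, but Trf and Ttr did not. Cyp3a25 and Cyp3a44 were at 8.0 and 8.13 on cKO 2 and at 5.24 to 6.57 on the other arrays, and Cyp3a57 was at 5.45 on cKO 2 and 3.78 to 4.71 elsewhere. The order cKO 2, control 3, control 1 at the top was found for 7 members (9.46%) and for 1.44% of all genes. Besides Cyp3a11 and Cyp3a16 these were Cyp2a12, Cyp2c67, Cyp2c68, Cyp2e1 and Cyp4a10.

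For 14 members cKO 1 and cKO 3 lay below every control while cKO 2 lay above every control (18.9%, against 2.67% of all genes). In such genes the group mean hides a split within the cKO arrays. Setting cKO 2 aside, cKO 1 and cKO 3 were both below every control for 26 members (35.1%, against 23.9% of all genes) and both above every control for 5 (6.76%, against 17.1%).

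Without cKO 2, 10 members passed (13.5%, against 11.4% of all genes), 8 lower (10.8%, against 6.63%) and 2 higher (2.7%, against 4.81%). The 5 genes that passed there but not with all arrays were Cyp2c23, Cyp2c70, Cyp2d22, Cyp4a10 and Cyp27a1, all lower. Cyp3a13 and Cyp4f13 no longer passed, at adjusted p of 0.0564 and 0.0972.

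**Figure D4:**
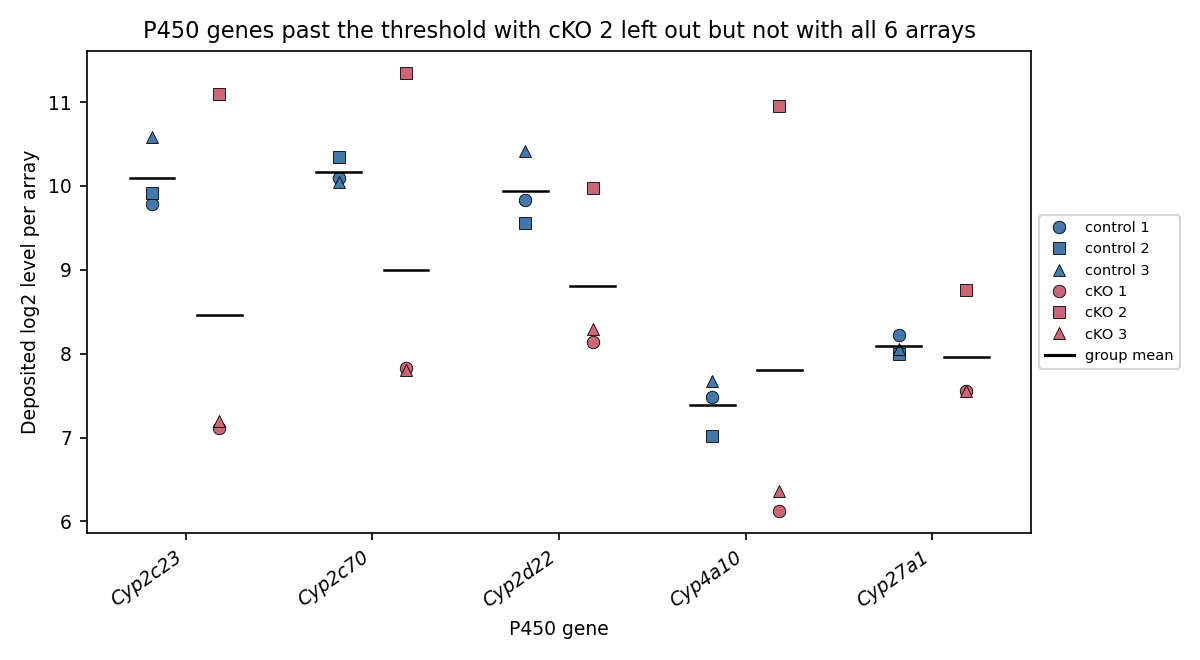
Deposited log2 level on each array for the 5 P450 genes that passed without cKO 2 but not with all 6 arrays. For each gene cKO 1 and cKO 3 lie below the 3 controls, as for Cyp2c70 at 7.83 and 7.81 against 10.05 to 10.35, while cKO 2 lies within or above the controls.

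Cyp2c23, an arachidonic acid epoxygenase, was at 9.78, 9.92 and 10.58 on the controls and at 7.11, 11.09 and 7.20 on the cKO arrays. It was low on cKO 1 and cKO 3 and above all controls on cKO 2. The change was −1.63 ± 1.05 with all arrays (adjusted p = 0.394) and −2.94 ± 0.24, or 7.67-fold lower, without cKO 2 (adjusted p = 0.00116). It was −2.25 ± 0.38 with the mean of the hepatocyte genes as a covariate (adjusted p = 0.0128).

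Cyp2c70, which makes the muricholic acids of rodent bile, was at 10.09, 10.35 and 10.05 on the controls and at 7.83, 11.35 and 7.81 on the cKO arrays. Again cKO 1 and cKO 3 were far below the controls and cKO 2 above them. The change was −1.17 ± 0.93 (adjusted p = 0.492) with all arrays and −2.34 ± 0.12, or 5.07-fold lower, without cKO 2 (adjusted p = 0.000271). With the hepatocyte covariate it was −1.66 ± 0.52 and did not pass (adjusted p = 0.0978).

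Cyp2d22, a relative of the human drug-oxidising CYP2D6, was at 9.83, 9.56 and 10.42 on the controls and at 8.14, 9.98 and 8.30 on the cKO arrays. Here cKO 2 lay among the controls. The change was −1.13 ± 0.51 (adjusted p = 0.221), −1.72 ± 0.25 without cKO 2 (adjusted p = 0.00841) and −1.45 ± 0.096 with the hepatocyte covariate (adjusted p = 0.000513).

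Cyp4a10, a fatty acid hydroxylase induced through PPARα, was at 7.48, 7.02 and 7.68 on the controls and at 6.12, 10.95 and 6.36 on the cKO arrays. Its direction turned with cKO 2, from 0.42 ± 1.25 (adjusted p = 0.874) to −1.15 ± 0.20 without that array (adjusted p = 0.0174). With the hepatocyte covariate it did not pass (−0.32 ± 0.48, adjusted p = 0.746). Cyp4a31 and Cyp4a14 from the same cluster were at 9.53 and 9.56 on cKO 2 and changed by −1.01 (adjusted p = 0.107) and −0.73 (adjusted p = 0.324) without it. The 3 genes resemble each other, so their probe sets can share signal.

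Cyp27a1, the mitochondrial sterol hydroxylase of bile acid synthesis, was at 8.22, 8.0 and 8.05 on the controls and at 7.55, 8.76 and 7.56 on the cKO arrays. It changed by −0.13 ± 0.33 with all arrays and by −0.54 ± 0.10 without cKO 2 (adjusted p = 0.0212). With control 3 left out as well it did not pass (−0.56, adjusted p = 0.0553), nor did it with the hepatocyte covariate (−0.31 ± 0.17, adjusted p = 0.334).

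Trf and Ttr were higher on cKO 1 and cKO 3 than on control 1, so arrays are grouped here by Alb alone. Control 2, cKO 1 and cKO 3 are the 3 arrays on which Alb was low. They were not even in other hepatocyte genes: Afp was at 10.85 on control 2 against 9.06 and 9.69. Without cKO 2, Afp itself passed as lower (limma, adjusted p = 0.0174). On these 3 arrays Cyp2c23 was at 9.92 against 7.11 and 7.20, Cyp2c70 at 10.35 against 7.83 and 7.81, and Cyp2d22 at 9.56 against 8.14 and 8.30. Cyp27a1 was at 8.0 against 7.55 and 7.56, and Cyp4a10 at 7.02 against 6.12 and 6.36. These P450 genes were picked because they passed as lower without cKO 2, so this order is a description that the choice of genes fixed. The part of liver RNA in it was not tested. The erythroid and immune lists were highest on cKO 2 along with the hepatocyte list, and the part of each in the values of cKO 2 was not tested.

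With control 3 and cKO 2 both left out, 10 members passed (13.5%, against 7.95% of all genes), 6 lower (8.11%, against 4.4%) and 4 higher (5.41%, against 3.55%). Among the lower were Cyp2c23 at −2.69 (adjusted p = 0.0013), Cyp2c70 at −2.40 (adjusted p = 0.00163), Cyp2d22 at −1.48 (adjusted p = 0.00604) and Cyp4a10 at −1.01 (adjusted p = 0.0402). With the hepatocyte covariate 10 members passed (13.5%, against 13.2% of all genes), 7 lower (9.46%, against 7.54%) and 3 higher (4.05%, against 5.67%). Cyp2c68 was then lower (−0.63 ± 0.11, adjusted p = 0.0132) and Cyp7a1 higher (0.80 ± 0.20, adjusted p = 0.0495). Cyp2c68 did not pass with all 6 arrays and no covariate (−0.35, adjusted p = 0.68) or without cKO 2 (−0.85, adjusted p = 0.0924). With control 3 left out too it was at −0.62 (adjusted p = 0.111). The covariate is a mean of genes that include Tat, Ambp and F9, which passed as higher in the cKO group. It is thus not free of the group difference. Cyp2c67, the neighbour of Cyp2c68, was at 9.76, 9.49 and 10.13 on the controls and at 8.63, 10.96 and 9.17 on the cKO arrays.

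Partners of the P450 enzymes changed in both directions. Among 20 genes of electron supply and haem synthesis 2 rose and 3 fell, with a list median of −0.12. Of all genes 5.52% rose and 7.42% fell, and no list was tested as a set. Pgrmc2, a haem-binding membrane protein, fell by 1.91 ± 0.13 (adjusted p = 0.000533) and Cyb5b, the mitochondrial outer membrane cytochrome b5, by 0.77 ± 0.099 (adjusted p = 0.00438). Cyb5r3, a cytochrome b5 reductase, fell by 0.41 ± 0.078 (adjusted p = 0.0188), while Fdx1, the ferredoxin of mitochondrial P450 enzymes, rose by 1.16 ± 0.21 (adjusted p = 0.0146). Without cKO 2 the counts were 1 higher and 7 lower, beside 4.81% and 6.63% of all genes. With control 3 left out too they were 0 higher and 3 lower, beside 3.55% and 4.4%. The higher count was also 0 without control 2, control 3 or cKO 1, and 1 without control 1 or cKO 3. The Fdx1 call was lost without any 1 control or cKO 1 (adjusted p up to 0.0606), and the Cyb5r3 call without any 1 control or cKO 3 (adjusted p up to 0.0777).

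Among 28 transcription factors that control P450 genes 5 rose and 3 fell, beside 5.52% and 7.42% of all genes. The counts were 6 and 4 without cKO 2, beside 4.81% and 6.63%. The lower count was 0 without control 2, control 3 or cKO 3 and 1 without control 1, while the higher count stayed at 5. Foxa1 and Foxa3, forkhead factors of endoderm, rose by 1.58 ± 0.15 (adjusted p = 0.00161) and 1.11 ± 0.11 (adjusted p = 0.00175). Pparg, a lipid-sensing nuclear receptor, rose by 1.5 ± 0.15 (adjusted p = 0.00163) and Rarg, a retinoic acid receptor, by 0.70 ± 0.084 (adjusted p = 0.0035). Of 7 genes listed here as targets of the aryl hydrocarbon receptor that are no P450 genes 1 rose and 2 fell (median −0.23). Beside them stand the same shares of all genes, 5.52% and 7.42%. Whether this receptor controls each of them was not tested, and Lrat was also counted in the retinoic acid list below. Nqo1, a quinone reductase, rose by 0.71 ± 0.10 (adjusted p = 0.00746), whereas Lrat, which stores retinol as ester, fell by 2.63 ± 0.094 (adjusted p = 7.12e-05) and Tiparp, a repressor of the receptor, by 0.58 ± 0.086 (adjusted p = 0.00772).

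Among 20 enzymes that act beside the P450 epoxygenases on epoxides and arachidonate 3 rose and 2 fell (median 0.03). The shares of all genes were 5.52% and 7.42%. Hpgd, which inactivates prostaglandins, was at 8.12, 8.15 and 8.19 on the controls and at 10.74, 10.65 and 10.12 on the cKO arrays, a change of 2.35 ± 0.17 (adjusted p = 0.000533). Ephx2, the soluble epoxide hydrolase, was at 11.20, 11.40 and 11.71 on the controls and at 10.12, 10.03 and 9.83 on the cKO arrays, a change of −1.44 ± 0.15 (adjusted p = 0.00195). Neither pair of groups overlapped. Lta4h, which makes leukotriene B4, fell by 0.44 ± 0.075 (adjusted p = 0.0122), and Pla2g4a, which releases arachidonate, rose by 1.13 ± 0.22 (adjusted p = 0.0207). Lta4h missed the threshold once control 2, control 3 or cKO 3 was dropped (highest adjusted p = 0.053). Pla2g4a missed it once cKO 3, cKO 1 or control 1 was dropped (highest adjusted p = 0.0723). The higher count was 1 without control 1 or cKO 3, and the lower count 1 without control 2, control 3 or cKO 3.

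Of 17 genes of retinoic acid synthesis and signalling 1 rose and 3 fell (median 0.01), among them Lrat and Rarg. The shares of all genes, here and for the next list, were 5.52% and 7.42%. Rbp2, which carries retinol in enterocytes, fell by 1.57 ± 0.083 (adjusted p = 0.000227) and Aldh1a1, a retinaldehyde dehydrogenase, by 0.85 ± 0.19 (adjusted p = 0.032). Of 11 genes of bile acid synthesis that are no P450 genes 0 rose and 2 fell (median 0.16). Nr0b2, a repressor of Cyp7a1, fell by 0.54 ± 0.093 (adjusted p = 0.0131) and the peroxisomal enzyme gene Hsd17b4 by 0.57 ± 0.12 (adjusted p = 0.0304). The Aldh1a1 call held only without control 1, Nr0b2 missed the threshold once cKO 3, control 3 or control 2 was dropped, and Hsd17b4 once control 2 or any 1 cKO array was dropped. Neither bile acid gene passed without control 2 or cKO 3. The lists share Nr0b2, Lrat and Rarg, so their counts are not independent.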

How the data were processed

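The authors deposited a log2 level for each of 35512 probe sets on 6 Affymetrix Mouse Gene 1.0 arrays. They used dChip, as the series text says. The sources used here give neither its version nor how it corrected background, normalized arrays or modelled expression. That the scale is log2 was inferred from its range, 0 to 14.25, with array medians of 7.73 to 7.84. Scanner files were not used. Gene names came from the platform annotation, in which 21789 probe sets have 1 gene, 1621 several and 12102 none. Of several probe sets of a gene the one with the highest mean was kept. All 74 members matched a symbol in the RefSeq table of GRCm38.p6.

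Groups were taken from the source names. Levels of all 19938 genes were compared with limma 3.58.1 in R 4.3.3 (lmFit and eBayes, two-sided, no covariate), with Benjamini-Hochberg adjustment over all genes at 0.05. The step was tested on simulated data. The members, gene lists and alternatives were chosen with earlier results of these data known. Genes named are those that passed, those with a change of at least 1 log2 unit, the 3 brightest of each family, and enzymes with a textbook role. Genes singled out through cKO 2, and Alb, were named after their values were seen. Pathway lists are described by counts and by up to 4 genes with the smallest adjusted p. Alternatives were other normalization, centring, a pseudocount of 32, filters on dim genes, other variance models, array weights, a replicate block, the mean of probe sets, arrays left out and the hepatocyte mean as a covariate.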

Additional observations from a re-analysis of the deposited data

How the results depend on the processing

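Cyp2u1, Cyp2d34, Cyp4f16 and Cyp4f40 kept their direction and passed under every alternative in which they were tested; Cyp2d34 was removed by both filters on dim genes. The count of P450 genes higher on the cKO arrays was 2, and it was 1 with genes below the median level or in the lower tertile left out, and 4 with control 3 and cKO 2 both left out. Omitting 1 array gave 2 to 3. The count lower was 5, and omitting 1 array gave 2 (without control 1, control 2, control 3 or cKO 3) to 8 (without cKO 2). Of all genes 2580 passed, 1586 with control 3 and cKO 2 both left out, and 1482 to 2281 with 1 array left out. Cyp4a10 reversed to −1.15 without cKO 2 and to −1.01 with control 3 also left out, since cKO 2 alone was high, and ran up to 1.26 with another array omitted. The cause of the other losses was not tested, beyond fewer arrays. The titles number the arrays 1 to 3 in both groups, and the deviations of same-numbered arrays correlated at −0.02, −0.43 and −0.18. These values cannot decide whether the numbers mark pairs. Number 2 joins the array with the highest hepatocyte mean (cKO 2, 11.72) and the one with the lowest (control 2, 7.59). With the replicate block 1449 genes passed, with 2 members higher and 2 lower. The number of arrays and the dim levels of many members limit what could be found.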
